A study of Rattus norvegicus and Ovis aries with 113 samples.

Results

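The basal ganglia dissection of 5 male sheep was compared with 9 other brain dissections of the same animals. The basal ganglia libraries were the 5 whose labels name that dissection, 1 per sheep, out of 113 RNA-seq libraries in the series. The other 45 brain libraries came from frontal, prefrontal, motor, posterior parietal, visual and entorhinal cortex, hippocampus, cerebellum and pons, each taken once from every sheep. Sheep sperm libraries and all rat libraries were left out. The animals, numbered 687, 688, 690, 694 and 699, were male and past puberty, the dissections of an animal came from the same hemisphere, and by the labels the animals were untreated, with no genotype, breed or age in numbers given, so that region is what separates the groups. The labels do not say which nuclei the basal ganglia dissection held. All values describe tissue pieces with mixed cell types, in which fewer cells of a type and less RNA per cell cannot be told apart.

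The basal ganglia are a group of nuclei at the base of the forebrain that select and time movements and link them to reward. Their input nucleus, the striatum, consists mostly of GABA-releasing spiny projection neurons. Those of the direct pathway carry the dopamine receptor D1 and use substance P and dynorphin, and those of the indirect pathway carry the dopamine receptor D2 and the adenosine receptor ADORA2A and use enkephalin. Dopamine acts on both through cyclic AMP, a small signalling molecule that adenylyl cyclases make and phosphodiesterases break down. Cortex and hippocampus, by contrast, are built around glutamate-releasing principal neurons.

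The deposited tables gave raw read counts for 31304 genes. After 4 abundant placeholder entries were left out, the basal ganglia libraries held 45.1 to 54.9 M counts and the other brain libraries 42.4 to 66.7 M. Levels are given as CPM, the counts a gene would have in a library of 1 M counts, scaled by trimmed mean of M values (TMM) factors, which were 0.825 to 0.929 in basal ganglia and 0.858 to 1.19 elsewhere. The 5 basal ganglia libraries resembled each other, with correlations of log2(CPM + 1) of 0.969 to 0.990 over 10 pairs. The hippocampus library of sheep 699 stood apart from the other hippocampus libraries, with NEUROD6 at 1.38 CPM against 32.2 to 94.5 CPM and SIX3 at 7.50 CPM against 0.39 to 1.52 CPM. Leaving it out gave 1212 genes called higher and 1040 called lower, beside the 1184 and 1045 below. Some other comparison libraries also held values far from their region and were not left out singly. NRGN was at 128 CPM in pons of sheep 694, against 5.39 to 10.3 CPM in pons of the other sheep. TTR was at 829 CPM in motor cortex of sheep 687, against 1.60 to 66.1 CPM.

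Basal ganglia were set against the mean of the 9 other regions with edgeR's quasi-likelihood test, with the sheep as a block. Folds are log2 fold changes of basal ganglia minus that mean on the log scale, with their standard error, and a call needed both an adjusted p (Benjamini-Hochberg) under 0.05 and a log2 fold of 1 or more in size. The fit tested 21144 genes and gave 1184 calls higher in basal ganglia (5.6%) and 1045 lower (4.94%). The median log2 fold change over all tested genes was -0.01. Counts of calls in the gene lists below are to be read beside these shares of 5.6% and 4.94%. A test of 1 difference per sheep with limma called 610 higher and 506 lower. Its error came from the spread of the 5 differences, shrunk toward a trend over all tested genes. In addition, basal ganglia were set against each region in turn: 317 genes (1.5%) were called higher in all 9 comparisons and 112 (0.53%) lower in all 9. Without cerebellum and pons, 430 were called higher and 430 lower in all 7 comparisons. In 308 genes (1.46%) all 5 basal ganglia libraries lay above all 45 others, and in 63 (0.298%) below. Because the mean is taken on the log scale, a gene near 0 in 1 region, often cerebellum or pons, has a raised fold. The fold of a gene near 0 also depends on the small prior count that edgeR adds.

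The label was checked first with 3 striatal genes. DRD1, the dopamine receptor of direct pathway neurons, was at 202, 194, 171, 292 and 300.4 CPM in basal ganglia of sheep 687, 688, 690, 694 and 699. In the other 45 libraries it ranged from 0.590 to 31.5 CPM, with a median of 12.3 CPM and the highest value in motor cortex of sheep 688. DRD2, the dopamine receptor of indirect pathway neurons, was at 126, 95.6, 85.3, 176 and 276 CPM in the same order of sheep, against 0.609 to 16.3 CPM elsewhere. All 5 basal ganglia libraries were above every other library for both receptors. SLC35D3, a member of the nucleotide sugar transporter family found in D1 neurons, was at 33.1, 21.4, 15.7, 28.9 and 28.3 CPM, against 0 to 1.02 CPM elsewhere. These values rested on 3588 to 13356 counts per library for the receptors and 662 to 1348 for SLC35D3. The log2 fold changes were 4.66 ± 0.25 for DRD1 (edgeR, adjusted p = 8.66e-19), 6.23 ± 0.17 for DRD2 (adjusted p = 1.11e-28) and 8.98 ± 0.27 for SLC35D3 (adjusted p = 2.33e-27), each higher in all 5 sheep. All 3 genes were highest in the libraries labelled basal ganglia.

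DRD1 and SLC35D3 belong to the direct pathway list and DRD2 to the indirect pathway list, and are counted again here. The other genes of both lists were higher in basal ganglia as well. All 7 tested genes of the direct pathway list and all 6 of the indirect pathway list were called higher, with median log2 fold changes of 4.97 and 5.81 beside -0.01 for all tested genes. TAC1, which encodes the precursor of substance P, was at 422, 214, 196, 394 and 320.1 CPM in basal ganglia of sheep 687, 688, 690, 694 and 699, and at most 37.0 CPM elsewhere. PDYN, the precursor of dynorphin, was at 478, 366, 196, 221 and 371 CPM, with hippocampus the next highest region at 63.8 ± 33.0. The neuropeptide levels of the direct pathway were thus highest in sheep 687 and lowest in sheep 690, and no basal ganglia library overlapped another region. The fold was 5.03 ± 0.20 for TAC1 (adjusted p = 9.91e-23) and 4.97 ± 0.32 for PDYN (adjusted p = 5.22e-16). The muscarinic receptor CHRM4 differed by 3.12 ± 0.27 and was called higher against 8 regions, its mean of 31.8 ± 12.8 CPM overlapping with cerebellum at 21.5 ± 1.76 CPM. EBF1, a transcription factor of direct pathway neurons, had a log2 fold change of 1.02 ± 0.27, with cerebellum higher at 41.7 ± 6.91 CPM against 12.5 ± 1.28 CPM in basal ganglia. It lost its call without the block, at 0.91, and in 4 other settings.

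Among indirect pathway genes, PENK, the enkephalin precursor, was at 1111, 679, 565, 1010.0 and 1367 CPM in sheep 687, 688, 690, 694 and 699. Cerebellum came next at 151 ± 101 CPM, with its highest library at 304 CPM, below the lowest basal ganglia library. ADORA2A, the adenosine receptor that raises cyclic AMP in these neurons, was at 257, 158, 162, 303 and 434 CPM and never above 3.65 CPM in another library. GPR6, an orphan receptor of these neurons, was at 11.8, 8.38, 10.9, 21.8 and 24.4 CPM, against at most 0.910 CPM. The order of sheep was shared by ADORA2A, DRD2 and GPR6 at the top, where 699 came first and 694 next. The folds were 5.40 ± 0.37 for PENK (adjusted p = 3.51e-15), 7.50 ± 0.14 for ADORA2A (adjusted p = 1.91e-34) and 6.99 ± 0.28 for GPR6 (adjusted p = 4.06e-23). GPR52, another orphan receptor, differed by 4.29 ± 0.30, and the transcription factor SP9 by 2.7 ± 0.28. SP9 overlapped with the highest library of another region, at 9.77 CPM.

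**Figure D1:**
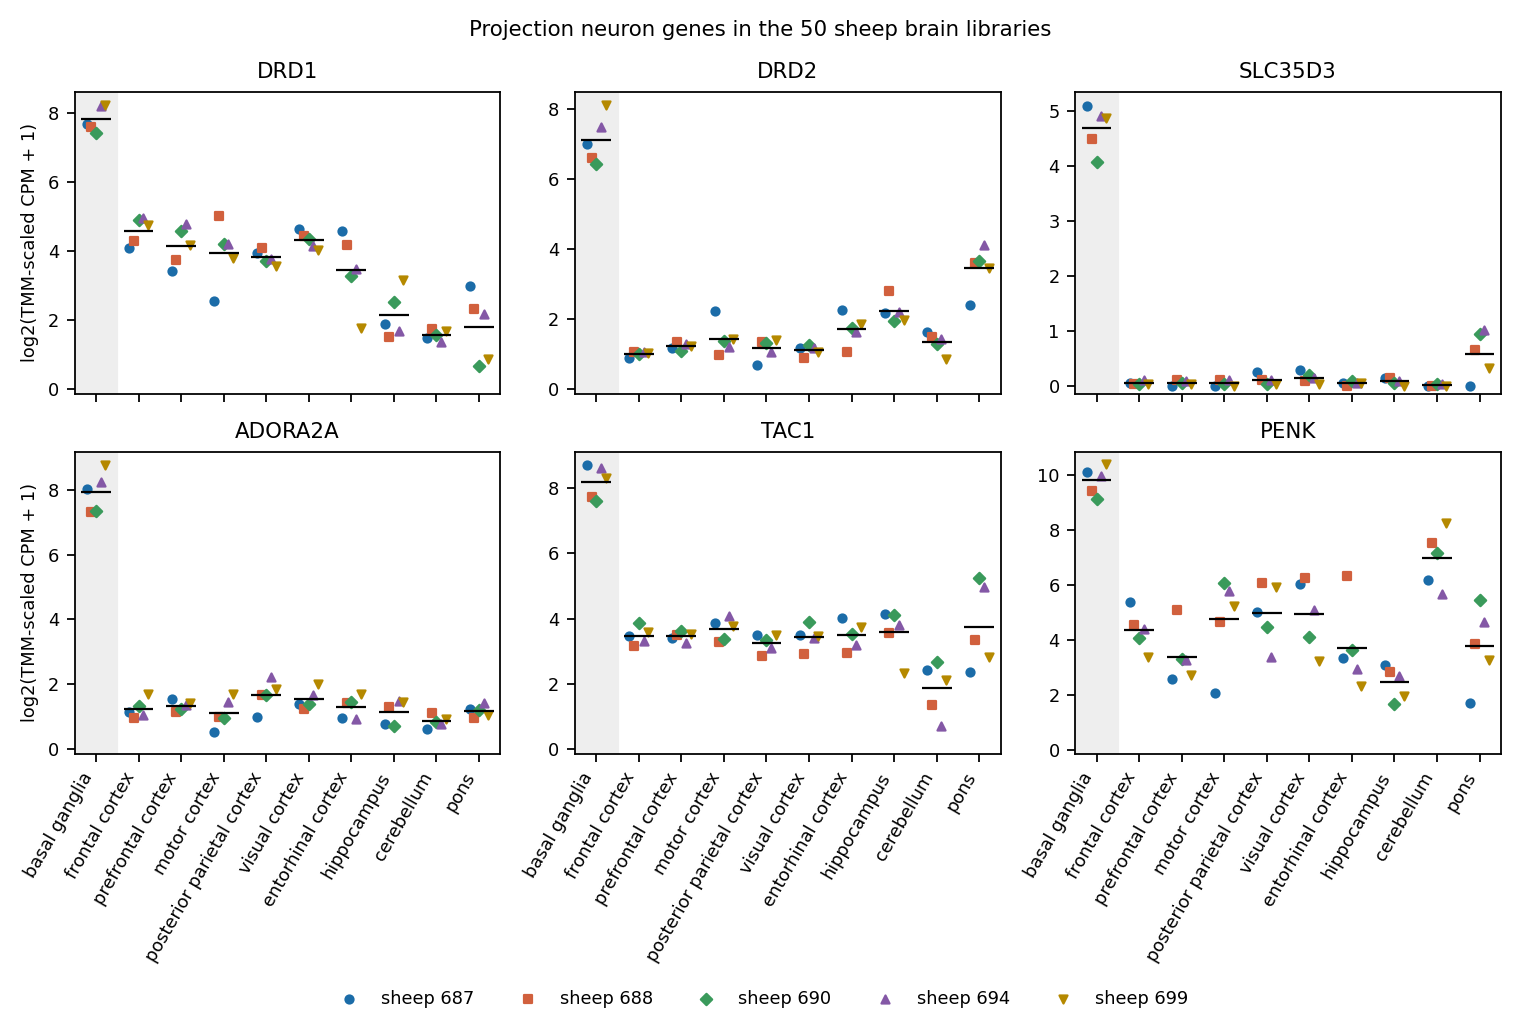
Levels of 6 projection neuron genes in 50 sheep brain libraries, as log2(TMM-scaled CPM + 1) by region. Points are single libraries with 1 colour and marker per sheep, short lines are region means on this scale, and the shaded column is basal ganglia. In all 6 genes the 5 basal ganglia libraries lie above the other 45, and PENK has its next highest region in cerebellum.

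Genes that carry the dopamine signal into the cell formed the second group. Of 20 tested genes for dopamine and cyclic nucleotide signalling, 17 were called higher and 0 lower, with a median log2 fold change of 2.83, and 12 were higher against each of the 9 regions. PPP1R1B, the phosphatase inhibitor DARPP-32 that dopamine switches through cyclic AMP, was at 1093, 764, 757, 1741 and 2177 CPM in sheep 687, 688, 690, 694 and 699. The other libraries ranged from 13.6 to 66.1 CPM. GNAL, the G protein subunit that couples DRD1 and ADORA2A to adenylyl cyclase, was at 369.7, 267, 261, 347 and 375 CPM, against at most 44.0 CPM. It varied little between sheep, whereas PPP1R1B was highest in 699 and 694. GNG7, the gamma subunit that pairs with it, was at 1874, 1615, 1639, 2484 and 3055 CPM, and the other libraries reached 355 CPM. ADCY5, the adenylyl cyclase of these neurons, was at 366, 287, 331, 486 and 772 CPM, against at most 121 CPM. The folds were 5.17 ± 0.15 for PPP1R1B, 4.46 ± 0.18 for GNAL, 3.58 ± 0.11 for GNG7 and 2.77 ± 0.11 for ADCY5, with adjusted p-values of 1.33e-27, 4.06e-23, 1.33e-27 and 2.94e-23 (edgeR).

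Enzymes that end or shape the signal were higher too. PDE10A, a phosphodiesterase of projection neurons, was at 552, 663, 525, 1267 and 831 CPM, and cerebellum was next at 109 ± 15.0 CPM. PDE1B, which calcium and calmodulin activate, was at 466, 352, 348, 599.8 and 1037 CPM and never above 78.8 CPM elsewhere. RGS9, which speeds the switching off of G proteins, was at 129, 73.9, 62.5, 111 and 153 CPM, with cerebellum next at 27.1 ± 1.99 CPM. None of these 3 genes overlapped with another region, and their folds were 3.95 ± 0.13, 3.79 ± 0.14 and 3.36 ± 0.11. The phosphatase PTPN5, also called STEP, differed by 3.28 ± 0.20, the small G protein RASD2, also called Rhes, by 4.58 ± 0.20, and ARPP21, a calmodulin regulator, by 2.78 ± 0.22. HPCA, the calcium sensor hippocalcin, differed by 2.88 ± 0.35 and was not called against hippocampus, where it was at 547 ± 327 CPM against 793 ± 412 CPM in basal ganglia. PDE2A was called only with cerebellum and pons in the mean, since its fold was 0.60 without them against 1.46 ± 0.14 with them. The 3 genes without a call were GNB5 at 0.86 ± 0.16, ITPR1 at 0.77 ± 0.21 and CAMK4 at -0.42 ± 0.15.

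Of 22 transcription factors listed for striatal neurons, 16 were called higher and 0 lower, with a median log2 fold change of 1.52, and 8 were higher in all 9 comparisons. SIX3, a factor of ventral forebrain development, was at 76.8, 40.4, 53.0, 60.5 and 76.2 CPM in sheep 687, 688, 690, 694 and 699. It was under 1 CPM in most other libraries but reached 12.9 CPM in pons of sheep 694 and 7.50 CPM in hippocampus of sheep 699. Its fold of 9.59 ± 0.55 was the largest among the genes named by rule (adjusted p = 9.20e-18), and all basal ganglia libraries were above all others. BCL11B, also called CTIP2, a regulator of projection neuron maturation, was at 196, 158, 131, 224 and 186 CPM, with hippocampus next at 48.8 ± 35 CPM. RXRG and RARB, nuclear receptors for retinoids, differed by 4.62 ± 0.30 and 2.08 ± 0.17. FOXP1, a forkhead factor of striatal neurons, was at 82.2, 59.9, 58.3, 97.5 and 105 CPM and at most 46.2 CPM elsewhere, a fold of 1.57 ± 0.12. MEIS2 differed by 2.61 ± 0.26, and DLX6, of a family that specifies GABA neurons, by 4.66 ± 0.15. FOXP2, known for its part in vocal learning, was just past the threshold at 1.04 ± 0.41 (adjusted p = 0.0493), and lost its call in 8 alternative settings.

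The sign of some forebrain factors depended on which regions were in the mean. DLX1 had a log2 fold change of 1.16 ± 0.24 against the mean of 9 regions but -1.09 without cerebellum and pons (adjusted p = 0.000609), and -0.29 with limma on 1 difference per sheep. Without sheep 694 the fold was 0.83, and not called. Its level was 6.82 ± 5.04 CPM in basal ganglia, 18.6 ± 1.43 CPM in posterior parietal cortex and 0.00690 CPM in pons. DLX2 went from 1.60 ± 0.25 to -0.36 without cerebellum and pons, where it was not called (edgeR, adjusted p = 0.305). With limma on 1 difference per sheep it was at 0.03.

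Channels and postsynaptic proteins listed for striatal neurons numbered 21, of which 15 were called higher and 1 lower, with a median log2 fold change of 1.75. ANO3, a protein of the anoctamin family, was at 425, 549.7, 427, 862 and 579 CPM in sheep 687, 688, 690, 694 and 699, against at most 60.5 CPM elsewhere. SYNDIG1L, also called capucin, was at 247, 191, 196, 655 and 785 CPM, against at most 39.3 CPM. SCN4B, the sodium channel subunit beta 4, was at 197, 188, 161, 771 and 666 CPM, and of the other 45 libraries only pons of sheep 687, at 213 CPM, reached into that range. Sheep 694 and 699 stood above the other 3 for SYNDIG1L and SCN4B. The folds were 5.15 ± 0.22, 5.57 ± 0.30 and 3.75 ± 0.43. STRIP2, of the striatin-interacting proteins, differed by 3.49 ± 0.12, the potassium channel subunit KCNAB1 by 2.34 ± 0.16 and the GABA receptor subunit GABRA4 by 1.75 ± 0.15. KCNJ6, a potassium channel opened by G proteins, was the exception: it was at 3.51, 4.47, 7.84, 2.86 and 2.68 CPM in basal ganglia and between 9.82 and 117 CPM elsewhere, a fold of -3.78 ± 0.30 (adjusted p = 2.14e-13). All 5 basal ganglia libraries were below all 45 others for KCNJ6. GRM5, GRIA3, GRIK3, KCND2 and GABRG1 were not called, with log2 fold changes of 0.71, 0.06, 0.18, 0.54 and -0.43.

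**Figure D2:**
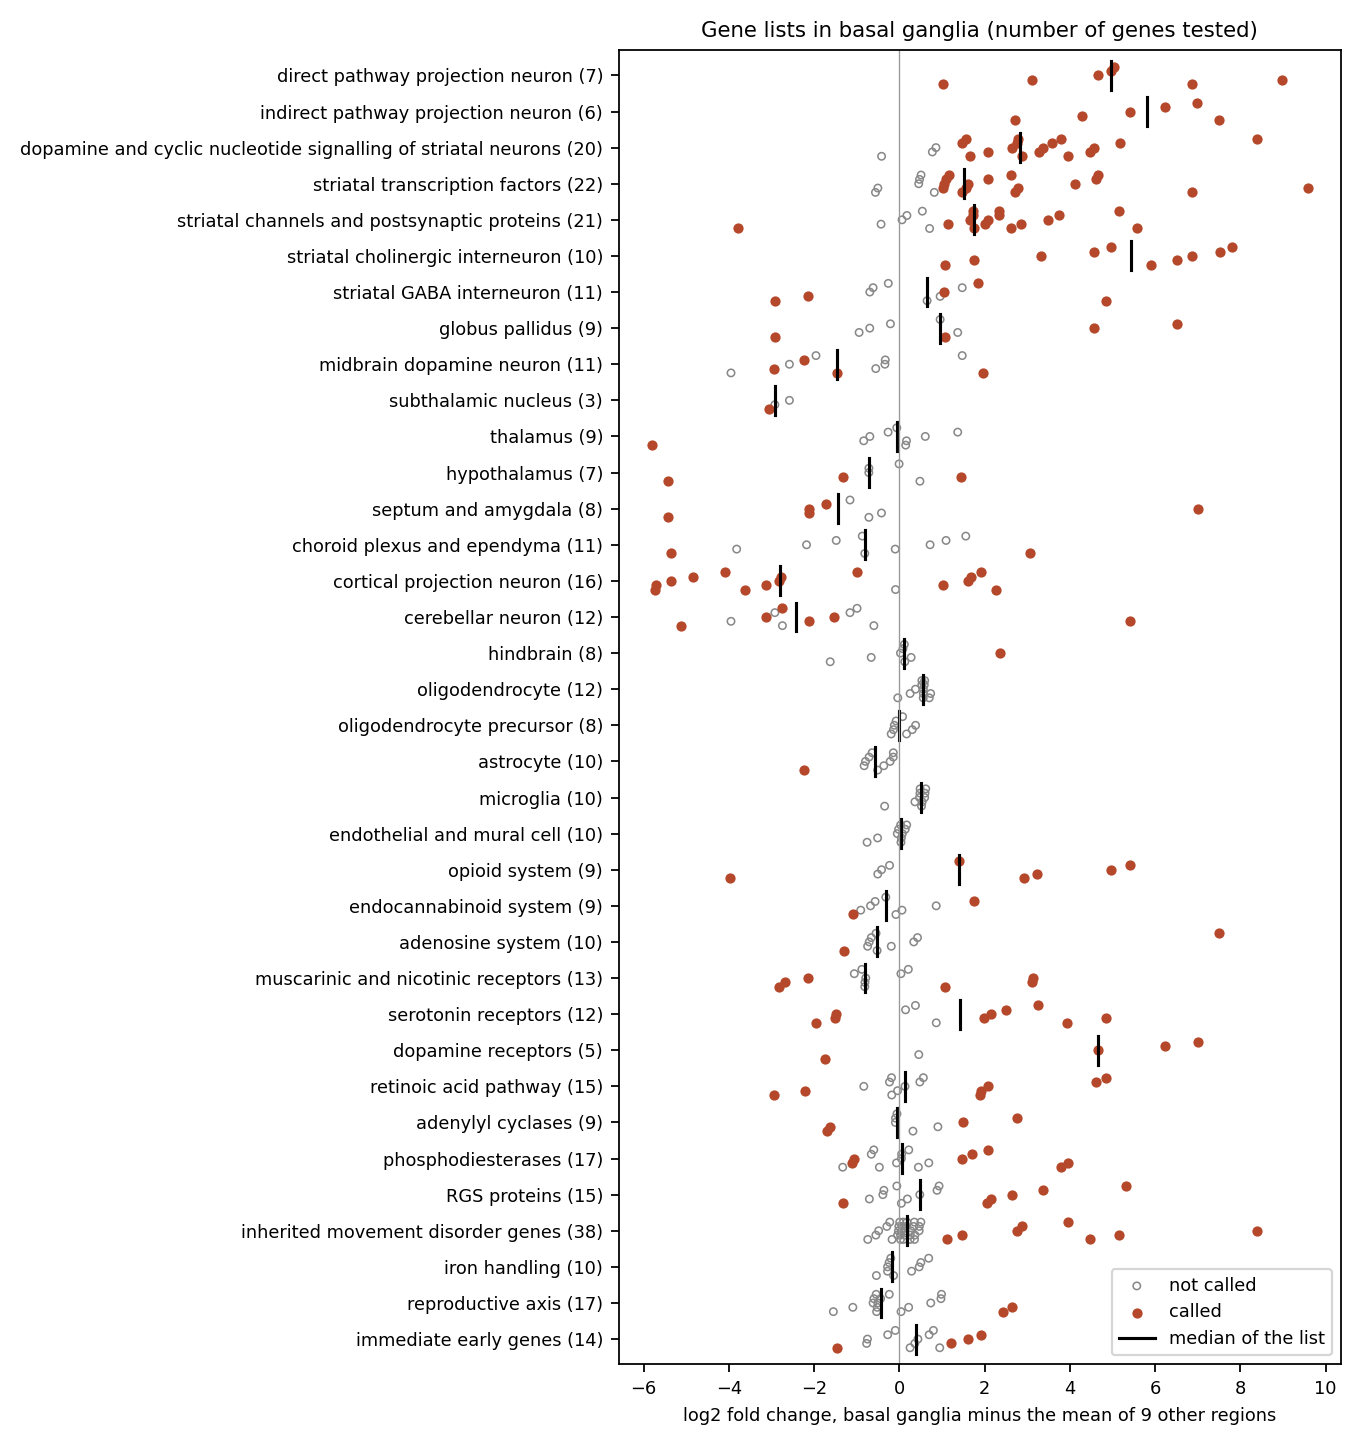
Log2 fold change of basal ganglia against the mean of 9 other regions for the tested genes of 36 lists. Each point is a gene, filled where called, the vertical line is the median of the list, and the number tested is in brackets. The direct and indirect pathway lists lie wholly to the right of 0, and the cortical projection neuron list has its median at -2.80.

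The 9 regions were not alike in their distance from basal ganglia. Cerebellum gave the most calls, 3985 higher and 2346 lower in basal ganglia, followed by pons with 2194 and 2182. Entorhinal cortex gave the fewest, 813 higher and 1135 lower, and the 5 neocortical regions and hippocampus gave 925 to 1114 higher and 1160 to 1269 lower. These comparisons share the 5 basal ganglia libraries. DRD1 differed least from frontal cortex, by 3.28 ± 0.50, and most from cerebellum, by 6.90 ± 0.60. DRD2, in contrast, differed least from pons, by 3.81 ± 0.36, where it was at 10.6 ± 4.29 CPM. PDYN differed least from hippocampus, by 2.54 ± 0.63, and PENK from cerebellum, by 2.74 ± 0.74. The calcium-binding protein CALB1, at 95.3 ± 30.3 CPM in basal ganglia, was higher than in 8 regions but lower than in cerebellum, where it was at 318 ± 114 CPM and where Purkinje cells carry it.

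**Figure D3:**
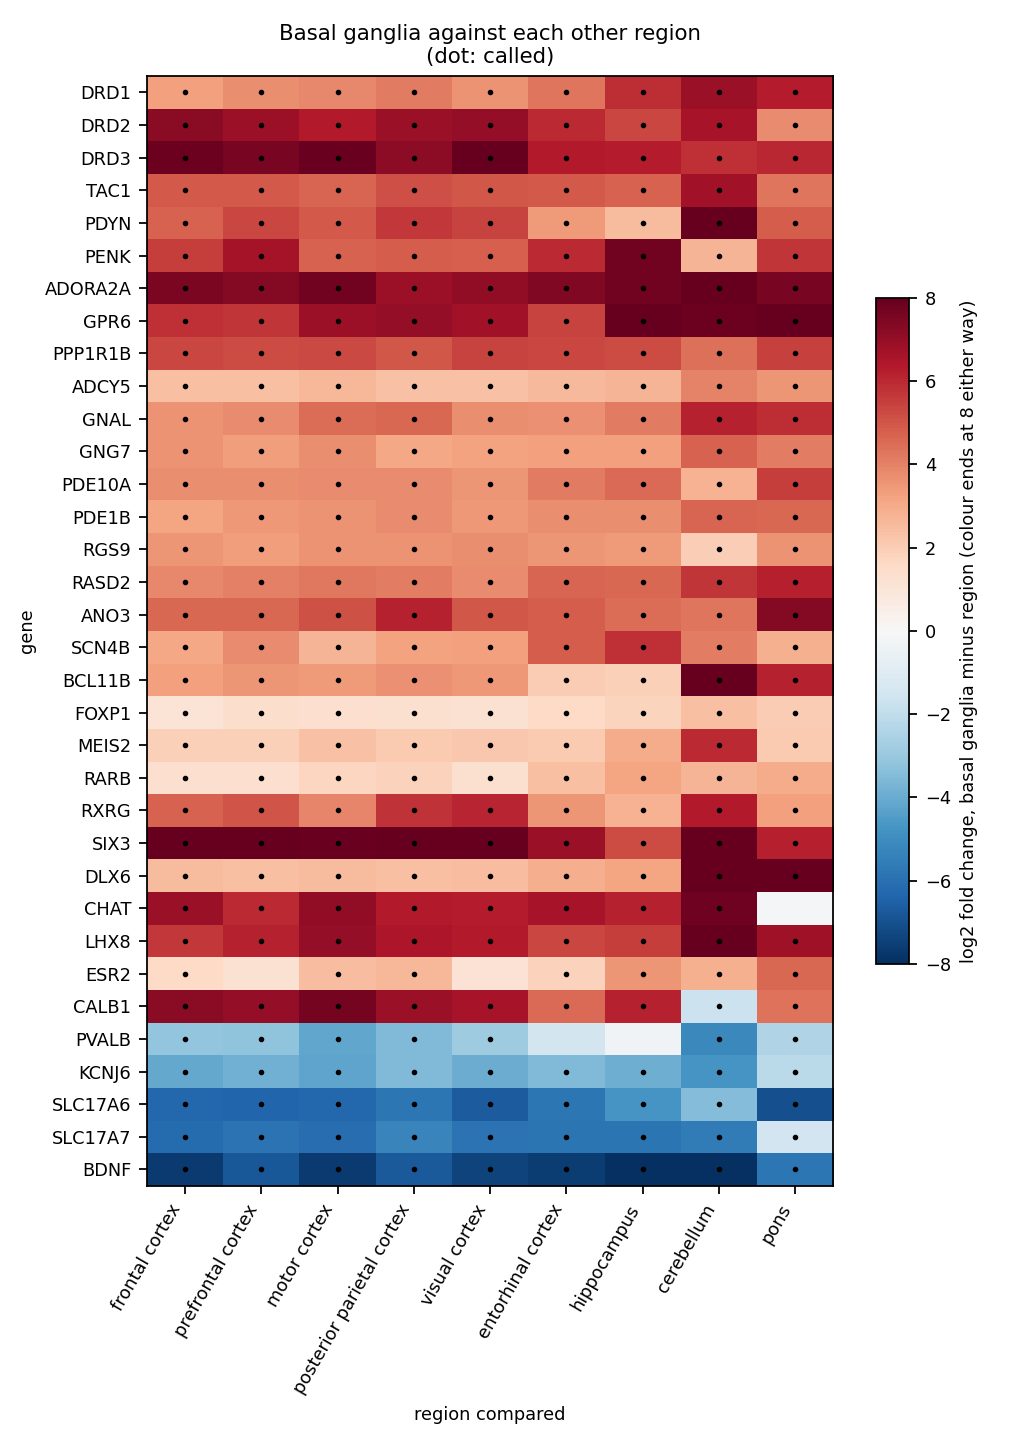
Log2 fold change of basal ganglia minus each of 9 regions for 34 genes, red where basal ganglia were higher and blue where lower. A dot marks a call, and colours end at 8 in either direction. The striatal signalling genes are red in all 9 columns, CALB1 is blue in cerebellum, and CHAT has no call in pons.

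Receptors for the transmitters that act on the striatum divided by subtype. Of 5 dopamine receptors, 3 were called higher and 1 lower. DRD3, known from ventral striatum, was at 56.6, 55.6, 35, 49.8 and 62.3 CPM in sheep 687, 688, 690, 694 and 699 and never above 1.28 CPM elsewhere, a fold of 7.01 ± 0.16 (adjusted p = 2.38e-31). DRD4 was not called, at 0.46 ± 0.16. DRD5 was called lower at -1.74 ± 0.45, from 0.319 ± 0.154 CPM in basal ganglia to 1.14 CPM over the other regions, but reached only -0.62 with limma on 1 difference per sheep. Of 9 tested genes of the opioid system, 5 were called higher and 1 lower, the 5 being both precursors PENK and PDYN and the receptors OPRM1, OPRD1 and OPRK1. The kappa receptor OPRK1 was at 84.9, 80.8, 56.3, 68.0 and 59.0 CPM, against at most 27.2 CPM, a fold of 2.93 ± 0.21. The mu receptor OPRM1 was at 43.5 ± 5.04 CPM and differed by 3.22 ± 0.31, although cerebellum was close to it at 48.3 ± 13.7 CPM. The delta receptor OPRD1 differed by 1.39 ± 0.27, and by 0.66 without cerebellum and pons, where it was not called. PCSK1, a protease that cuts peptide precursors, was lower by -3.97 ± 0.56, at 1.23, 2.49, 4.61, 5.28 and 1.86 CPM against 62.3 CPM over the other regions.

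Of 12 serotonin receptors, 6 were called higher and 3 lower. HTR2A, a receptor coupled to the phosphoinositide pathway, was at 79.0, 92.1, 58.0, 185 and 109.7 CPM in the 5 sheep and at most 26.6 CPM elsewhere, a fold of 3.94 ± 0.40. HTR1D, which inhibits transmitter release, was at 17.2, 4.00, 17.7, 35 and 55.8 CPM, far higher in sheep 699 than in sheep 688, yet in all 5 above the highest other library, at 1.88 CPM. Its fold was 4.85 ± 0.29. HTR6 and HTR4, which raise cyclic AMP, differed by 2.16 ± 0.10 and 2.00 ± 0.19, and HTR1B and HTR5A by 3.26 ± 0.37 and 2.51 ± 0.37. HTR1A, HTR2B and HTR7 were called lower, by -1.5 ± 0.41, -1.48 ± 0.33 and -1.94 ± 0.32, of which HTR1A was not called without the basal ganglia libraries of sheep 688 and 690 (adjusted p = 0.0565) and HTR2B reached only -0.52 with limma on 1 difference per sheep. Muscarinic and nicotinic receptors gave 3 called higher, CHRM1, CHRM4 and CHRM5, and 3 lower, CHRNA3, CHRNA4 and CHRNA5, of 13 tested. CHRNA4, the common partner of the beta 2 subunit, was at 0.786, 1.06, 1.33, 0.371 and 0.878 CPM against 7.78 CPM over the other regions, a fold of -2.82 ± 0.31. CHRM1, at 1.07 ± 0.24, lost its call without cerebellum and pons, at 0.08, and without sheep 699, at 0.71. Of 10 adenosine genes only ADORA2A was called higher, and ADORA2B was called lower at -1.30 ± 0.30, or -0.78 and not called with limma on 1 difference per sheep. Among 9 endocannabinoid genes FAAH, which breaks down anandamide, was higher by 1.75 ± 0.17, and MGLL, which breaks down 2-arachidonoylglycerol, was lower by -1.08 ± 0.24, or by -0.94 and not called without the basal ganglia libraries of sheep 688 and 690, while the receptor CNR1 was not called at 0.86 ± 0.30.

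Gene families of the cyclic nucleotide pathway were split in the same way. Of 9 adenylyl cyclases, ADCY5 and ADCY3 were called higher and ADCY2 and ADCY8 lower, with a median log2 fold change over the family of -0.06. ADCY3 differed by 1.5 ± 0.19, ADCY2 by -1.62 ± 0.20 and ADCY8 by -1.70 ± 0.28. Of 17 phosphodiesterases, 5 were called higher (PDE10A, PDE1B, PDE7B, PDE1C and PDE2A) and 2 lower (PDE1A and PDE3B), with a median of 0.05. PDE3B lost its call without cerebellum and pons, at -0.60, without sheep 699, at -0.83, and with limma on 1 difference per sheep, at -0.78. PDE7B was even between sheep, at 121, 119, 121, 157 and 139 CPM against at most 57.2 CPM elsewhere, a fold of 2.07 ± 0.11. PDE1A, which shares its activation by calmodulin with PDE1B, went the other way by -1.07 ± 0.35, although it was not called when sheep 687, 694 or 699 was left out, at -0.89 to -0.84. Of 15 RGS proteins, 5 were called higher and 1 lower. RGS14 was at 256, 231, 207, 518 and 647 CPM in sheep 687, 688, 690, 694 and 699 and at most 103 CPM elsewhere, a fold of 5.32 ± 0.28. RGS2, RGS8 and RGS16 differed by 2.16 ± 0.17, 2.63 ± 0.22 and 2.06 ± 0.20, and RGS11 was lower by -1.33 ± 0.27, a call lost without the basal ganglia libraries of sheep 688 and 690.

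The retinoic acid pathway, which guides striatal development and stays active in the adult, had 5 calls higher and 2 lower among 15 tested genes, with a median log2 fold change of 0.13. The receptors RARB and RXRG were joined by the binding protein CRABP1. CRABP1 was at 54.1, 46.5, 49.7, 54.0 and 86.3 CPM in the 5 sheep and at most 13.0 CPM elsewhere, a fold of 4.85 ± 0.38 (adjusted p = 1.27e-13). The other retinoid receptors were not called, with -0.83 for RARA, -0.18 for RARG, -0.23 for RXRA and 0.13 for RXRB. The 2 genes called lower, ALDH1A1 and ALDH1A2, encode enzymes that make retinoic acid, and no other gene of the list was called lower. ALDH1A1 was at 1.52, 7.81, 1.21, 1.07 and 1.63 CPM against 25.2 CPM over the other regions, a fold of -2.93 ± 0.67. ALDH1A2 differed by -2.22 ± 0.63. STRA6, a retinol carrier, was called at 1.88 ± 0.66 (adjusted p = 0.0251), but not without the block, at 1.46, nor without sheep 687, 688 or 690.

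Genes of inherited movement disorders were examined because the basal ganglia are a main site of such disease. Of 38 tested, 8 were called higher and 0 lower, with a median log2 fold change of 0.17. Over all tested genes 5.6% were called higher and 4.94% lower. They included GNAL, ADCY5, PDE10A, ANO3, HPCA, KCTD17 and PDE2A, 5 of which belong to the lists for striatal signalling and 1, ANO3, to the channel list. KCTD17, a protein that acts on cyclic AMP signalling, differed by 1.13 ± 0.17 and fell short without cerebellum and pons, at 0.93, and without sheep 699, at 0.89. The remaining 30 genes were not called. HTT, which is mutated in Huntington's disease, was at 79.8 ± 15.7 CPM in basal ganglia against 78.3 CPM over the other regions, a fold of 0.06 ± 0.11. TOR1A, of early-onset dystonia, differed by 0.09 ± 0.10 and LRRK2 by 0.12 ± 0.22. None of 10 tested iron handling genes was called, since 4 with an adjusted p below 0.05 had folds under the limit. Among them FTH1, the ferritin heavy chain, was higher by 0.69 ± 0.14 (adjusted p = 1.36e-04).

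Interneurons and the other nuclei that a basal ganglia dissection can hold were checked with their own lists. All 10 tested genes of cholinergic interneurons were called higher, with a median log2 fold change of 5.43, but 2 of the calls were not stable. SLC17A8, a vesicular glutamate transporter, had a fold of 1.75 ± 0.50 and lost its call without cerebellum and pons, at 1.11, without sheep 688 (adjusted p = 0.0598), without the basal ganglia libraries of sheep 688 and 690, and with limma on 1 difference per sheep. GBX1, a homeobox factor at 0.261 ± 0.110 CPM, had a fold of 1.07 ± 0.27 and lost its call in the same 4 settings, with folds of 0.87, 0.97, 0.92 and 0.15. CHAT, which makes acetylcholine, was at 3.12, 5.36, 14.0, 7.86 and 6.66 CPM in sheep 687, 688, 690, 694 and 699. Cortex, hippocampus and cerebellum had means of at most 0.107 CPM, but pons, which holds cholinergic neurons of its own, reached 61.6 CPM. CHAT was not called against pons. SLC5A7, the choline transporter, was at 8.92, 19.2, 27.5, 20.2 and 11.2 CPM and in pons at 3.15, 60.5, 198, 5.65 and 1.56 CPM, so pons of some sheep was higher and of others lower. The folds were 5.90 ± 0.45 for CHAT, 7.53 ± 0.60 for the vesicular transporter SLC18A3 and 7.81 ± 0.40 for SLC5A7. LHX8, a factor of cholinergic and pallidal neurons, was at 2.65, 3.14, 4.59, 3.56 and 1.73 CPM and at most 0.184 CPM elsewhere, a fold of 6.51 ± 0.34, and NKX2-1, of the embryonic medial ganglionic eminence and the pallidum, differed by 4.56 ± 0.20. Of 9 globus pallidus genes, 3 were called higher (NKX2-1, LHX8 and GBX1) and 1 lower (PVALB). Of 11 genes of striatal GABA interneurons, 3 were higher (NPY, CRABP1 and PTHLH) and 2 lower (PVALB and CHRNA3). PVALB, of fast-spiking interneurons and pallidal cells, was at 2.06, 1.77, 1.81, 5.87 and 4.28 CPM against 36.9 CPM over the other regions, a fold of -2.92 ± 0.59. NPY differed by 1.84 ± 0.33, but by 0.44 without cerebellum and pons, where it was not called. PTHLH differed by 1.05 ± 0.24, but by 0.47 without cerebellum and pons, and it also lost its call without sheep 687, at 0.96, without sheep 688, at 0.98, and with limma on 1 difference per sheep, at 0.74. SST was not called at 0.65 ± 0.46.

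Lists for neighbouring structures were examined in the same way. They are short, and over all tested genes 5.6% were called higher and 4.94% lower. Of 11 tested midbrain dopamine neuron genes, 1 was called higher and 3 lower (NR4A2, LMX1B and ALDH1A1). LMX1B, at 0.0338 CPM in basal ganglia, lost its call without sheep 688 or 694 and without the basal ganglia libraries of 688 and 690. It was also lost with limma-voom and with limma on 1 difference per sheep, at -0.26. TH, which makes the precursor of dopamine, was at 0.540, 0.471, 0.357, 1.11 and 0.774 CPM and not called (1.48 ± 0.62), and the dopamine transporter SLC6A3 was at 0.147, 0.0981, 0.475, 0.284 and 0.284 CPM. PITX3 was the one called higher, at 1.71 ± 0.922 CPM, a fold of 1.95 ± 0.38, and 0.87 with limma on 1 difference per sheep. Of 3 tested subthalamic genes 1, BARHL2, was lower, a call that was lost in 9 settings. Of 9 thalamus genes 1, SLC17A6, was lower, and the median of the list was -0.06. RORA, a nuclear receptor of that list, was at 162 ± 34.2 CPM against 149.9 CPM over the other regions and was not called. Of 7 tested hypothalamus genes, 1 was called higher, AGRP at 0.370 ± 0.121 CPM, and 2 lower, AVP and SIM1. With limma on 1 difference per sheep AGRP reached only 0.27 and AVP only -0.68. The call of SIM1 was lost whichever sheep was left out, and with limma-voom (adjusted p = 0.061). SIM1 and HMX3 had 0 counts in all 5 basal ganglia libraries, and SIM1 reached at most 0.933 CPM elsewhere. Of 8 septum and amygdala genes, DRD3 was called higher and 4 were called lower, SIM1 again and ZIC2, ZIC4 and ZIC5. These ZIC genes were highest in cerebellum, at 350, 156 and 89.7 CPM. ZIC4 lost its call without cerebellum and pons, at -0.97, and without sheep 690, 694 or 699. TTR, the marker of choroid plexus, was at 6.09, 33.3, 1.97, 1.70 and 1.45 CPM, highest in sheep 688. The other regions averaged 158 CPM, but their libraries ranged from 0.220 to 1467 CPM. TTR was not called, at -2.18 ± 1.23 (edgeR, adjusted p = 0.185). Of 11 tested choroid plexus and ependyma genes 1 was called higher (TMEM212) and 1 lower (AQP1). TMEM212 was higher in only 3 of 5 sheep and lost its call without sheep 694 (adjusted p = 0.356), with DESeq2 (adjusted p = 0.0759), with limma-voom (adjusted p = 0.118) and with limma on 1 difference per sheep, where AQP1 also fell short, at -0.54. Of 8 tested hindbrain genes, TPH2, which makes serotonin, was called higher by 2.36 ± 0.36, at 4.67, 5.79, 2.47, 15.7 and 3.98 CPM in basal ganglia, highest in sheep 694, and 9.23 ± 9.30 CPM in pons. HOXA2, HOXA3 and HOXB5 had 0 counts in all 5 basal ganglia libraries.

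Genes of glutamate neurons were mostly lower in basal ganglia. Of 16 tested cortical projection neuron genes, 10 were called lower and 5 higher, with a median log2 fold change of -2.80, and the higher ones included EMX2, TLE4, LAMP5 and NRGN. SLC17A7, the vesicular glutamate transporter of cortical neurons, was at 3.51, 31.5, 9.91, 2.12 and 3.10 CPM in sheep 687, 688, 690, 694 and 699. The other regions averaged 440.5 CPM, from 32.7 ± 46.5 CPM in pons to 595 ± 205 CPM in motor cortex. SLC17A6, the transporter of subcortical glutamate neurons, was at 0.0491, 0.863, 0.713, 0.0655 and 0.0258 CPM against 24.5 CPM. Sheep 688 had the highest basal ganglia value of both transporters, and both overlapped with single libraries of other regions. The folds were -5.35 ± 0.60 (adjusted p = 1.97e-09) and -5.81 ± 0.72 (adjusted p = 2.38e-08). NEUROD6 and NEUROD2, factors of glutamate neuron differentiation, were lower by -5.74 ± 0.60 and -5.71 ± 0.60, and NEUROD1 by -5.13 ± 0.60. The synaptic zinc transporter SLC30A3 was lower by -4.40 ± 0.57 and in 7 regions, but was called higher against cerebellum, where it was at 0.269 ± 0.0539 CPM against 1.09 ± 1.55 CPM. TBR1 was lower by -2.83 ± 0.95 (adjusted p = 0.02), but not called without sheep 699 (adjusted p = 0.276) or 694 (adjusted p = 0.0899). Of the 5 higher genes, only TLE4 lay above all other libraries, at 65.6, 61.2, 71.9, 89.5 and 77.4 CPM against at most 53.4 CPM, and EMX2, LAMP5 and NRGN lost their calls without cerebellum and pons.

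BDNF, the growth factor that cortical neurons make and carry to the striatum, had the largest drop of all genes named by rule. It was at 0.147, 0.196, 0.0713, 0.0218 and 0.0516 CPM in basal ganglia of sheep 687, 688, 690, 694 and 699. In the other 45 libraries it was between 1.31 and 49.8 CPM, with means from 6.56 ± 6.54 CPM in pons to 37.1 ± 7.73 CPM in cerebellum. All basal ganglia libraries were below all others, and the fold was -7.38 ± 0.72 (adjusted p = 5.35e-11). ADCYAP1, the neuropeptide PACAP, was lower by -5.50 ± 0.88, at 0.147, 0.294, 0.404, 0.371 and 0.336 CPM against 17.8 CPM. CADPS2, a protein of dense-core vesicle release, was lower by -4.27 ± 0.47 and lay below all other libraries. C1QL3, a secreted synaptic protein, and SMIM43, a small membrane protein, were lower by -4.58 ± 0.76 and -4.53 ± 0.69. Of 12 cerebellar neuron genes, 5 were called lower and 1, CALB1, higher, and 3 of the 5 (PCP2, CBLN1 and FAT2) lost their calls without cerebellum and pons.

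**Figure D4:**
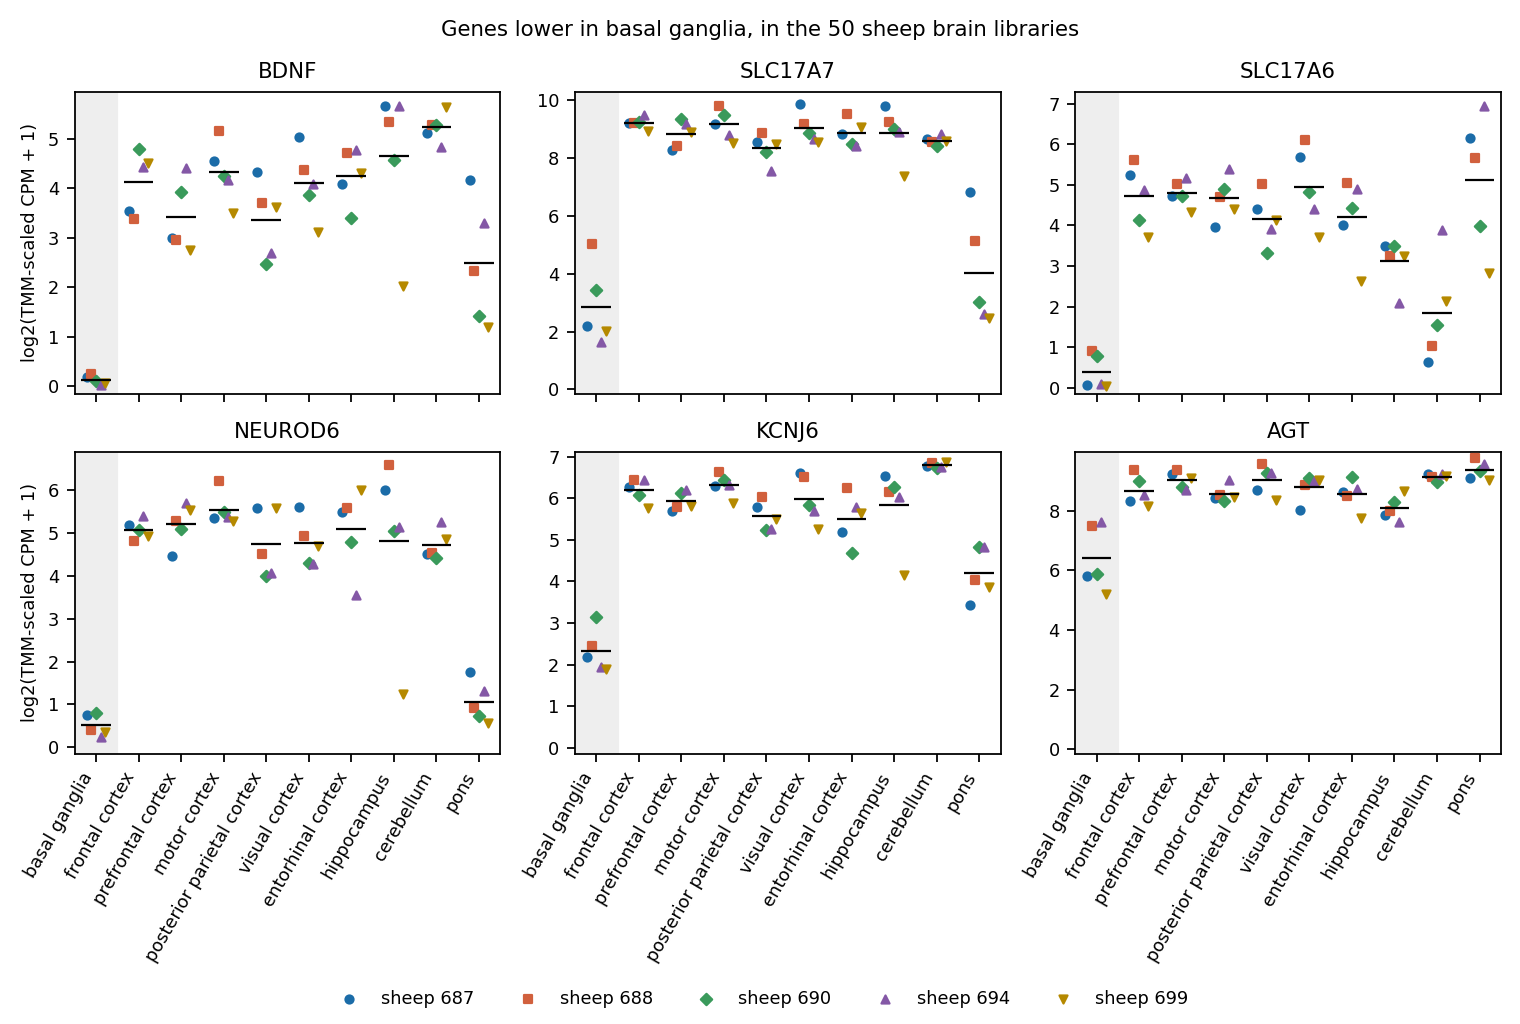
Levels of 6 genes called lower in basal ganglia, as log2(TMM-scaled CPM + 1) in 50 sheep brain libraries by region. Points are single libraries with 1 colour and marker per sheep, and short lines are region means on this scale. BDNF and KCNJ6 in basal ganglia lie below every other library, while SLC17A7, SLC17A6 and NEUROD6 overlap with pons or cerebellum.

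Glial and vascular lists gave few calls. None of 12 oligodendrocyte, 8 oligodendrocyte precursor, 10 microglia and 10 endothelial and mural genes was called in either direction, with median log2 fold changes of 0.56, 0.00, 0.50 and 0.03. At an unadjusted p below 0.05 (edgeR) the counts were 1, 0, 9 and 0. Over all tested genes the share at that threshold was 40.1%. Of the 10 microglia genes 7 were higher and 1 was lower at an adjusted p below 0.05, against 15.8% higher and 15.1% lower over all tested genes with no fold limit. All 8 had folds under the limit, such as CSF1R, the receptor for their survival factor, at 0.59 ± 0.21 (adjusted p = 0.028). Of 10 astrocyte genes 6 were lower at an adjusted p below 0.05, beside that 15.1%, but only 1 passed the fold limit, and the median of the list was -0.57. The gene past the limit was AGT, angiotensinogen, which astrocytes make, at 55.3, 177, 57.3, 196 and 36.1 CPM in sheep 687, 688, 690, 694 and 699. The other regions ranged from 279 ± 80.2 CPM in hippocampus to 663 ± 142 CPM in pons, and AGT was lower against all 9 (fold -2.23 ± 0.26, adjusted p = 5.80e-09). GFAP, the filament protein of astrocytes, was lower by -0.83 ± 0.24 (adjusted p = 0.00713), and the water channel AQP4 did not pass, at -0.22 ± 0.29.

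The basal ganglia libraries differed among themselves, and the striatal signalling genes were highest in other sheep than the oligodendrocyte, precursor and most microglia genes. Of 177 genes called higher in all 9 comparisons and at 10 CPM or more, 110 were highest in sheep 699, 46 in 694, 21 in 687 and 0 in 688 and 690. Over all 10121 genes tested at that level, 3860 were highest in 699, 1371 in 694, 1007 in 687, 1438 in 688 and 2445 in 690. The ratio of the highest to the lowest basal ganglia library had a median of 2.24 in these genes, and 30 of them (16.9%) differed by more than 3-fold. Over the 10121 genes the median was 1.60 and 472 (4.66%) differed by more than 3-fold. The summed level of the 20 signalling genes was 9774, 8177, 7862, 14797 and 16523 CPM in sheep 687, 688, 690, 694 and 699. All 20 were highest in 699 or 694. Other striatal lists were less uniform. Of 7 direct pathway genes, 4 were highest in 687, 2 in 699 and 1 in 690. Of 22 striatal transcription factors, 7 were highest in 694, 6 in 690, 4 in 687, 4 in 699 and 1 in 688. The 12 oligodendrocyte genes, which make myelin, summed to 8322, 15765, 24327, 7167 and 9062 CPM in the same order, and all 12 were highest in sheep 690. They ranged from 1569 to 106312 CPM in the other regions. All 8 oligodendrocyte precursor genes, 9 of 10 microglia genes and 9 of 10 cholinergic genes were also highest in 690, and 7 of 10 astrocyte genes in 688. The part of these differences in the folds given here was not tested. Without the basal ganglia libraries of sheep 688 and 690, the test called 1502 genes higher and 1096 lower, of 21651 tested. These libraries were picked after their low levels of striatal signalling genes were seen, so these counts do not answer that question. All 22 genes named by rule and reported here, which were chosen for their large folds, kept their call and direction there.

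**Figure D5:**
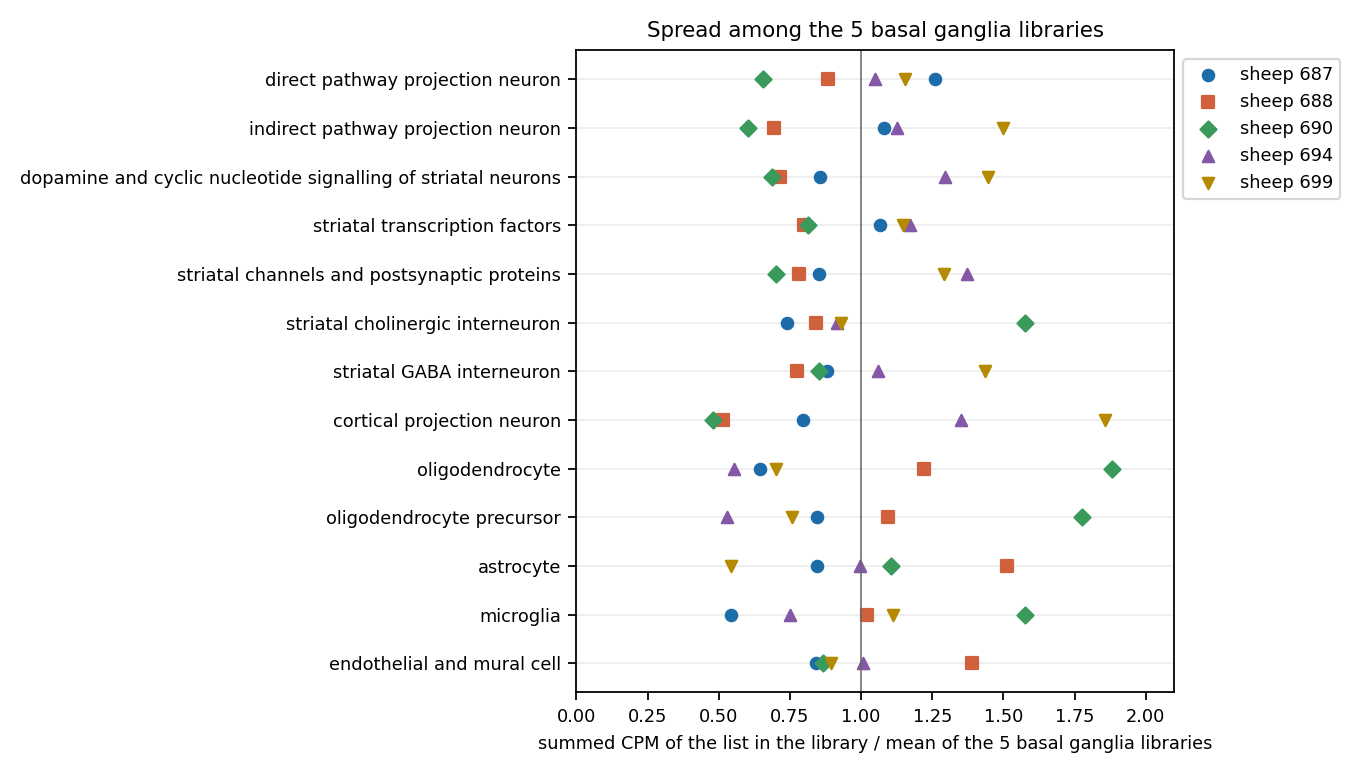
Summed CPM of 13 gene lists in each of the 5 basal ganglia libraries, divided by the mean of the 5. Each marker is a sheep. Sheep 690 is lowest for both projection neuron lists and the signalling list and highest for the oligodendrocyte, precursor, microglia and cholinergic lists, and sheep 699 is at the top for the signalling list.

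Genes of the reproductive axis were examined because the series sets brain beside reproductive tissue. Of 17 tested, 2 were called higher and 0 lower, with a median log2 fold change of -0.44. These counts are near the shares over all tested genes, 5.6% higher and 4.94% lower. ESR2, the estrogen receptor beta, was at 12.5, 14.3, 12.6, 18.0 and 17.1 CPM in sheep 687, 688, 690, 694 and 699 and at most 9.34 CPM in the other 45 libraries, so that the groups did not overlap. Visual cortex was next at 6.46 ± 1.92 CPM and prefrontal cortex at 6.27 ± 2.34 CPM, and pons was lowest at 0.642 ± 0.572 CPM. The fold was 2.44 ± 0.29 (adjusted p = 6.03e-09), with calls against 7 regions. ESR1, the estrogen receptor alpha, was at 1.23, 3.33, 1.4, 3.19 and 0.774 CPM and not called (-1.09 ± 0.45). KISS1, the kisspeptin precursor, was called at a low level, 0.333 ± 0.114 CPM against 0.0819 CPM, and reached 0.30 with limma on 1 difference per sheep. The receptor PRLHR, for prolactin-releasing peptide, was named by the rule on fold size: it was at 16.8, 16.0, 12.2, 11.9 and 15.4 CPM and at most 1.62 CPM elsewhere, a fold of 5.70 ± 0.34 (adjusted p = 4.31e-17).

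Immediate early genes, which neurons switch on with activity, gave 3 of 14 called higher (EGR3, EGR4 and ARC) and 1 lower (NR4A2). The median log2 fold change was 0.40. Over all tested genes 5.6% were called higher and 4.94% lower. EGR4 was at 27.8, 16.8, 10.1, 26.1 and 30.1 CPM in the 5 sheep and differed by 1.92 ± 0.29. EGR3 and ARC lost their calls without cerebellum and pons, at 0.44 and 0.17, and ARC also without sheep 687 or 699, at 0.97 and 1.00. FOS was at 38.0, 34.3, 11.5, 35.4 and 8.39 CPM, lowest in sheep 699 and 690, and was not called (-0.77 ± 0.43). SFN, the 14-3-3 protein sigma, was the remaining gene named by rule among the higher ones, at 21.3, 13.4, 8.08, 25.3 and 35.6 CPM in sheep 687, 688, 690, 694 and 699 and at most 0.227 CPM elsewhere. Its fold was 7.99 ± 0.19 (adjusted p = 1.09e-30), and all 5 basal ganglia libraries were above all others.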

How the data were processed

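RNA from sheep brain dissections was prepared with TRIzol and a DNase I step, and libraries from a stranded mRNA kit were read from both ends over 150 bases, per the labels' protocols. Per the submitters' processing notes and the design text, the authors used Trimmomatic v0.39, STAR v2.7.5a, the genome build ARS-UI_Ramb_v3.0, Rsubread v2.20.0 and R v4.4.2. The strand setting of the counting and its handling of reads with several matches are not stated in the labels or notes, so antisense and near-identical genes may share reads. The deposited values are raw counts per gene. The members, gene lists and tests were chosen with earlier results of these data known.

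Samples were grouped by the region in their titles, and 4 abundant placeholder entries were left out of counts and totals. Counts were tested with edgeR 4.0.16 (R 4.3.3): TMM factors, filterByExpr by region, a quasi-likelihood fit with region and sheep terms, and Benjamini-Hochberg adjustment over the 21144 genes tested. The sheep block pairs regions of the same animal, as the design text states. Deviations of log2(CPM + 1) from the region mean in basal ganglia were correlated with the mean deviations of the other regions of the same sheep. The correlations were 0.445, 0.0031, 0.380, 0.316 and 0.113 in sheep 687, 688, 690, 694 and 699. Basal ganglia of sheep 687, 690 and 694 correlated best with their own sheep, but 688 correlated best with sheep 694 and 699 with sheep 688. The edgeR p-values rest on residual spread pooled over all 10 regions of the 5 animals. The limma test of 1 difference per sheep used log2(CPM + 1), which shrinks folds of genes at low levels. No 2 of the 50 brain libraries held identical counts. Totals above 42 M counts leave genes under about 0.1 CPM with only a few counts. The standard error is the absolute log2 fold change divided by the square root of F.

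Genes were named by this rule: in each direction the 12 calls of largest fold size that had 10 CPM or more on average in the higher group, the same sign in all 5 sheep and no placeholder symbol, plus genes of the lists. Of the genes so named, 2 of the largest folds and some list members are not reported here, but list counts, sums and medians include them. DRD3, CRABP1 and several other list genes are in more than 1 list. The list members HMX2, FOLR1, HOXC4, PCSK2, ENTPD1, CYP26B1, PDE4A, PRLR and CYP19A1 were not analysed here. Alternatives were no block, 2 other scalings, no filter, the 4 entries kept, 7 reference regions, each sheep left out, DESeq2 1.42.0, limma-voom and limma on 1 difference per sheep (limma 3.58.1). Leaving out doubted libraries was added after the data were seen. The test was checked on simulated data.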

Additional observations from a re-analysis of the deposited data

Results flagged for a closer look

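In 4 of 25 genes checked for a sample far from the others within basal ganglia, sheep 688 stood above the other 4 sheep by a gap of more than 0.71 of the whole range, the critical value for 5 samples. All 4 are genes of glutamate neurons that were lower in basal ganglia than elsewhere. NEUROD2 was at 2.96 CPM in sheep 688, with the next sheep at 0.761 CPM. SLC17A7 was at 31.5 CPM, with the next at 9.91 CPM. NEUROD1 was at 0.588 CPM, with the next at 0.0983 CPM, and SLC30A3 at 3.75 CPM, with the next at 1.16 CPM. For normally distributed values, chance alone gives such a gap in a share of about 0.05 of groups. These values were CPM without logs, some of them near 0, so that share may not hold. The 4 genes also come from the same library and are not separate checks. The source of these values was not tested.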

How the results depend on the processing

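All 22 genes named by rule and reported here kept their direction and their call in all 352 values from 16 alternatives. They were chosen in the same data for large folds and the same sign in all 5 sheep, so their calls could hardly be lost. Of 2111 such values for the 132 other called list genes, 1981 kept both, 127 lost the call and 3 changed sign. Those 3 were DLX1 (-1.09) and DLX2 (-0.36) without cerebellum and pons, where these genes are near 0, and DLX1 (-0.29) with limma on 1 difference per sheep. Without the replicate block that pairs regions of a sheep, 1157 genes were called higher and 1015 lower, 313 higher in all 9 comparisons and 100 lower, and the calls of list genes lost there were those of EBF1, FOXP2, RORB, LAMP5, CHRM1 and STRA6. Limma on 1 difference per sheep called 610 higher and 506 lower, of which 607 and 488 were among the main calls. Without cerebellum and pons, 430 genes were higher and 430 lower in all 7 comparisons left. Leaving out 1 sheep gave 1100 to 1336 genes higher and 928 to 1085 lower, and 263 to 340 higher and 83 to 110 lower in all 9 comparisons. The other alternatives gave 990 to 1505 higher and 1010 to 1210 lower. Genes with only a few counts in basal ganglia, such as NEUROD1, have levels and folds of low precision.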

Other observations

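Other genes, chosen after their values were seen, were also higher in basal ganglia than in each of the 9 regions. NTS, the precursor of the peptide neurotensin, was at 119.9, 122, 63.4, 186 and 228 CPM in sheep 687, 688, 690, 694 and 699 and at most 20.0 CPM in the other 45 libraries, a log2 fold change of 5.36 ± 0.32. IAPP, the precursor of the peptide amylin, was at 2.36, 2.90, 0.856, 29.4 and 14.1 CPM in the same order and at most 0.116 CPM elsewhere, so it varied widely between sheep, with 694 highest and 690 lowest, and yet did not overlap with another region. RGS9BP, which encodes a protein that anchors RGS9, was at 5.38, 6.98, 5.44, 33.5 and 25.2 CPM and differed by 3.47 ± 0.20. PCP4, a calmodulin-binding protein, was at 641 ± 363 CPM against 56.4 CPM over the other regions, a fold of 3.89 ± 0.29. CPNE5, of the copine family, differed by 3.99 ± 0.26, the cyclic nucleotide-gated channel subunit CNGB1 by 3.95 ± 0.24 and the alpha 2C adrenergic receptor ADRA2C by 3.31 ± 0.25. MME, or neprilysin, a protease that degrades enkephalin and substance P, was at 14.1, 14.1, 10.6, 31.6 and 29.0 CPM and differed by 3.10 ± 0.21.

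A further set of genes, likewise chosen after their values were seen, was lower in basal ganglia than in each of the 9 regions. VSNL1, the calcium sensor visinin-like 1, was at 44.1, 44.8, 63.2, 33.2 and 29.3 CPM in sheep 687, 688, 690, 694 and 699 against 419 CPM over the other regions, with all basal ganglia libraries below all others and a log2 fold change of -3.20 ± 0.26. The neuronal RNA-binding protein ELAVL4 and the nuclear receptor NR2F1 were also below all other libraries, with folds of -2.82 ± 0.25 and -2.13 ± 0.16. NEFH, the heavy neurofilament of large axons, was lower by -2.75 ± 0.51, and SNCB, which encodes beta-synuclein, by -2.30 ± 0.26.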
